A study of Homo sapiens with 2 samples.

Results

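Genes of cholesterol and fatty acid synthesis were compared between a CD2-positive and a CD2-negative subclone of HMC1, an immortal human cell line from a patient with mast cell leukaemia. The list held 36 genes, chosen by pathway: 16 for enzymes of sterol synthesis, 6 for regulators of the pathway or sterol carriers, and 14 for enzymes of fatty acid synthesis, elongation, desaturation and activation. Probe sets of the Affymetrix U133 Plus 2.0 array were taken where the platform annotation gave them to exactly 1 gene, and the brightest of a gene's probe sets, by mean log2 value of both arrays, stood for the gene. By this rule 31 of the 36 genes were measured, out of 19775 measured genes in all. *FDFT1* and *ACSL3* were named by no probe set in the annotation used here, and the probe sets of *CYP51A1*, *ELOVL1* and *FADS1* were annotated to a further gene as well, so these 5 genes are not analysed here.

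The CD2-positive array held RNA of cells collected by fluorescence-activated sorting with an antibody to the adhesion receptor CD2, and the CD2-negative array held RNA of the subclone without surface CD2. No treatment, time or culture condition besides the sort is given in the labels, and each subclone was represented by 1 array. No difference below therefore has a replicate check, a p-value or an error between cultures, and a difference between the subclones cannot be told apart from a difference between 2 cultures or 2 arrays. Because each array holds RNA of many cells, a change in the number of expressing cells and a change in RNA per cell cannot be told apart. The values are normalised intensities. A gene was compared where at least 1 array reached an intensity of 64, a log2 value of 6, which 3564 genes did. Every difference is the log2 value of the CD2-positive array minus that of the CD2-negative array. As a measure of spread within the arrays, the differences of the 2 brightest probe sets of 1 gene disagreed with a standard deviation of 0.13 per probe set over 937 genes, which covers probe behaviour only.

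The labels of the arrays were followed by *CD2* itself, at 219 in CD2-positive cells, against 13 in CD2-negative cells. The mast cell gene *KIT* read 1373 in CD2-positive cells, against 1328 in CD2-negative cells, and 6 of 7 measured mast cell markers were above the floor in at least 1 subclone, with *CMA1* at 2 on both arrays. All 6 of these markers were higher in CD2-positive cells, with a median difference of 0.55. *CPA3*, mast cell carboxypeptidase, read 1220 in CD2-positive cells, against 207 in CD2-negative cells (5.89-fold), and *HPGDS*, prostaglandin D synthase, 187 and 80 in that order (2.34-fold). *TPSAB1*, a tryptase, read 4806 in CD2-positive cells, against 3142 in CD2-negative cells (1.53-fold). The mast cell markers thus moved in the same direction as the synthesis genes described below, and their part in that result was not tested. Of 12 measured markers of T cells, B cells, monocytes, neutrophil precursors, epithelium and fibroblasts, 9 were at or below an intensity of 4 on both arrays, the highest reading of the Bacillus control probe sets. The highest of the 12 was *COL1A1* at 17 in CD2-positive cells, against 13 in CD2-negative cells, and the summed intensity of the 12 was 52 and 48, in the same order of subclones. The 18 probe sets of the hybridisation controls, bacterial and phage transcripts added to each sample, all had negative differences, with a median of -0.18.

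Cells build cholesterol from acetyl-CoA through the mevalonate pathway, squalene and lanosterol, and build fatty acids from the same precursor through malonyl-CoA. Both branches are driven by the sterol regulatory element-binding proteins (SREBPs), transcription factors that are held in the endoplasmic reticulum by SCAP and the INSIG proteins while sterols are plentiful and are released to the nucleus when sterols run low. Mast cells use these lipids for membranes, for the lipid rafts in which their receptors signal, and as a source of polyunsaturated fatty acids for eicosanoids.

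Sterol and fatty acid genes read slightly higher in CD2-positive cells. Of the 31 measured genes 20 were above the floor, and 19 of these 20 were higher and 1 was lower. Among all 3564 compared genes 41.9% were higher and 55.7% lower by any amount. The median log2 difference of the 20 genes was 0.41, against a median of -0.05 over all compared genes. At least 1.5-fold higher were 5 of the 20 (25%), namely *LSS*, *ELOVL6*, *AACS*, *FADS2* and *ACAT2*, against 4.29% of all compared genes. None of the 20 was at least 1.5-fold lower, which 3.82% of compared genes were. When values were centred on the hybridisation controls instead, 11 of the 20 genes and 313 of all compared genes were at least 1.5-fold higher, against 58 of all compared genes at least 1.5-fold lower, so that 84.4% of such calls were higher in place of 52.9%, and 69.2% of all compared genes were higher by any amount (50.4% after lowess). Under that centring *LSS* passed 2-fold (1.03). Without it, none of the 20 passed 2-fold in either direction, which 1.21% of compared genes did upward and 0.758% downward. The differences of 17 of the 20 genes lay above 0.14, the upper quartile of all compared genes, and 4 lay above 0.70, the upper end of the middle 95% of them. The set was assembled with earlier results of these arrays known, and 5 of the 20 genes (*AACS*, *ELOVL6*, *FADS2*, *SCAP* and *SREBF1*) reached the floor on the CD2-positive array alone, so these counts are a description.

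**Figure D1:**
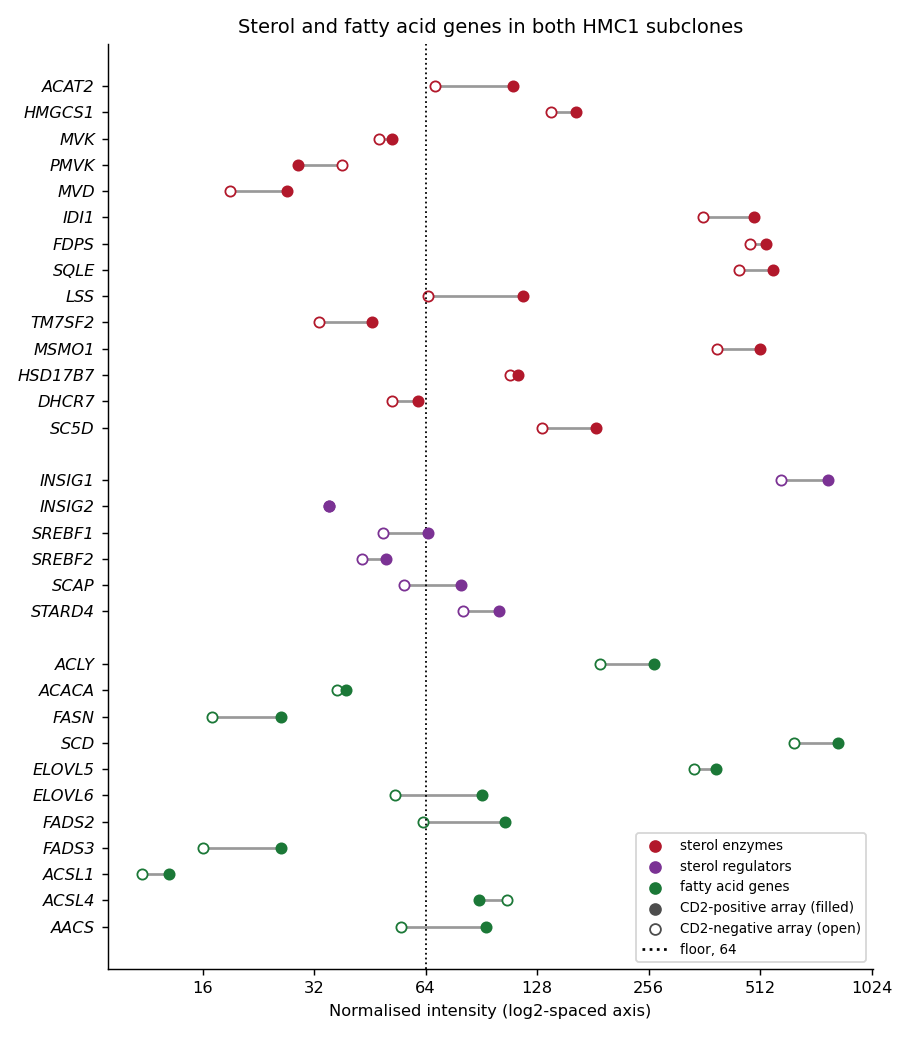
Normalised intensity of the 31 measured genes on the CD2-positive array (filled) and the CD2-negative array (open), on a log2-spaced axis, grouped into sterol enzymes, sterol regulators and fatty acid genes; the dotted line marks the floor of 64. The filled point lies to the right of the open one in all genes except PMVK and ACSL4, where it lies to the left, and INSIG2, at 35 on both arrays.

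The sterol enzymes were followed in the order of the pathway. *ACAT2*, the cytosolic acetoacetyl-CoA thiolase that joins acetyl-CoA units, read 110 in CD2-positive cells, against 68 in CD2-negative cells (1.62-fold, log2 difference 0.69). *HMGCS1*, the cytosolic HMG-CoA synthase, read 163 in CD2-positive cells, against 140 in CD2-negative cells (0.22), while its second probe set read 111 and 75 in that order (0.57). The 2 probe sets of *HMGCS1* thus had the same sign and sizes further apart than the spread of 0.13. The kinases and the decarboxylase of mevalonate lay below the floor, and differed in direction. *MVK*, mevalonate kinase, read 52 in CD2-positive cells, against 48 in CD2-negative cells, *PMVK*, phosphomevalonate kinase, 29 and 38, and *MVD*, the decarboxylase, 27 and 19. Dimmer probe sets of *MVK* read 30 and 26 in CD2-positive cells, against 21 and 19 in CD2-negative cells (0.51 and 0.45). A further set of *MVK* read 3 on both arrays. Among the sterol enzyme genes of the list, *PMVK* was the only measured gene with a negative difference (-0.39).

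*IDI1*, isopentenyl diphosphate isomerase, read 494 in CD2-positive cells, against 360 in CD2-negative cells (0.46), and its other probe set above the floor gave 0.43. Both carry an identifier ending in _x_at, which marks probes shared with other sequences. *FDPS*, farnesyl diphosphate synthase, at the branch between sterols and other isoprenoids, read 530 in CD2-positive cells, against 481 in CD2-negative cells (0.14). Its difference is close to the spread between probe sets. *SQLE*, squalene epoxidase, a rate-controlling step of the sterol branch, read 555 in CD2-positive cells, against 450 in CD2-negative cells (0.30), and its 2 dimmer probe sets above the floor gave 0.51 and 0.59.

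The steps after squalene held the largest difference of all 31 genes. *LSS*, lanosterol synthase, which closes the sterol ring system, read 117 in CD2-positive cells, against 65 in CD2-negative cells (1.80-fold, 0.85). Only 60 of the 3564 compared genes, or 1.68%, had a larger positive difference. A dimmer probe set of *LSS* below the floor read 32 in CD2-positive cells, against 14 in CD2-negative cells, and the other read 4 on both arrays, at the level of the Bacillus controls. *MSMO1*, the methylsterol monooxygenase that removes methyl groups of sterol intermediates, read 513 in CD2-positive cells, against 392 in CD2-negative cells (0.39). *SC5D*, sterol desaturase, read 185 in CD2-positive cells, against 132 in CD2-negative cells (0.49). *HSD17B7*, the ketosteroid reductase of the demethylation step, read 114 in CD2-positive cells, against 108 in CD2-negative cells (0.08), a difference smaller than the spread between probe sets. Its probe set has an identifier ending in _x_at as well. Below the floor, *TM7SF2*, a sterol reductase, read 46 in CD2-positive cells, against 33 in CD2-negative cells. *DHCR7*, which makes cholesterol from its last precursor in one arm of the pathway, read 61 in CD2-positive cells, against 52 in CD2-negative cells. In all, the 9 sterol enzyme genes above the floor were higher, with a median of 0.39 and a range from 0.08 to 0.85, and 4 of the 5 below it were higher. Of all 16211 measured genes below the floor, 4408 were higher, 4682 lower and 7121 equal.

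The regulators of the pathway had a narrow range of differences. *INSIG1*, the sterol-sensitive anchor of the SREBP complex and itself an SREBP target, read 781 in CD2-positive cells, against 584 in CD2-negative cells (0.42). Its other 2 probe sets above the floor gave 0.66 and 0.74, so that the brightest gave the smallest of the 3. *INSIG2*, the related anchor, read 35 on both arrays. *SCAP*, the sterol-sensing escort of the SREBPs, read 80 in CD2-positive cells, against 56 in CD2-negative cells (0.51). *SREBF1*, which encodes the SREBP known for fatty acid genes, read 65 in CD2-positive cells, just above the floor, against 49 in CD2-negative cells (0.41). *SREBF2*, which encodes the SREBP known for sterol genes, was below it at 50 and 43 in the same order (0.22). *STARD4*, a carrier of cholesterol between membranes, read 101 in CD2-positive cells, against 81 in CD2-negative cells (0.32). The 4 genes above the floor were all higher, between 0.32 and 0.51, with a median of 0.41. The 2 below the floor had the smallest differences of the 6.

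In the fatty acid branch *ELOVL6*, *AACS* and *FADS2* had the largest differences, followed by *FADS3* and *FASN*, both below the floor. *ACLY*, ATP citrate lyase, which makes cytosolic acetyl-CoA from citrate, read 264 in CD2-positive cells, against 189 in CD2-negative cells (0.48), and its other probe sets above the floor gave 0.38 and 0.26. *AACS*, acetoacetyl-CoA synthetase, which returns ketone bodies to lipid synthesis, read 93 in CD2-positive cells, against 55 in CD2-negative cells (1.69-fold, 0.76). The enzymes that build the chain were dim. *ACACA*, acetyl-CoA carboxylase, read 39 in CD2-positive cells, against 37 in CD2-negative cells. *FASN*, fatty acid synthase, read 26 in CD2-positive cells, against 17 in CD2-negative cells. The values are whole numbers, and rounding alone allows the *FASN* difference of 0.61 to lie between 0.54 and 0.68.

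*ELOVL6*, the elongase of saturated and monounsaturated chains, read 91 in CD2-positive cells, against 53 in CD2-negative cells (1.72-fold, 0.78). Its 2 probe sets below the floor had differences of the same sign, at 50 and 26 for one and 14 and 8 for the other, CD2-positive first. *ELOVL5*, the elongase of polyunsaturated chains, read 389 in CD2-positive cells, against 340 in CD2-negative cells (0.19). Desaturases were higher as well. *SCD*, stearoyl-CoA desaturase, which introduces the double bond of oleic acid, read 832 in CD2-positive cells, against 632 in CD2-negative cells (0.40). The other 3 probe sets of *SCD* above the floor gave 0.67, 1.04 and 1.11, so that 2 of its 4 probe sets exceeded 2-fold while the brightest, which represents the gene here, did not reach 1.5-fold. *FADS2*, the first desaturase in the synthesis of polyunsaturated fatty acids, read 105 in CD2-positive cells, against 63 in CD2-negative cells (1.67-fold, 0.74). *FADS3*, its neighbour on chromosome 11, lay below the floor at 26 in CD2-positive cells, against 16 in CD2-negative cells, and its other probe set read 27 and 15 in that order.

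The acyl-CoA synthetases, which activate fatty acids for use, differed in direction. *ACSL4*, which prefers arachidonic acid, was the single gene above the floor with a negative difference, at 89 in CD2-positive cells, against 106 in CD2-negative cells (-0.25). Its 2 dimmer probe sets read 24 and 23 in CD2-positive cells, against 32 and 29 in CD2-negative cells, lower as well. *ACSL1* lay below the floor at 13 in CD2-positive cells, against 11 in CD2-negative cells, where rounding alone allows a difference between 0.12 and 0.36. Of the 7 fatty acid genes above the floor 6 were higher, with a median of 0.48 and a range from -0.25 to 0.78, and all 4 below it were higher. Among all 16211 measured genes below the floor 4408 were higher. The ranges of the sterol enzyme and fatty acid genes overlap widely, and with 1 array per subclone no difference between the 2 branches was tested.

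**Figure D2:**
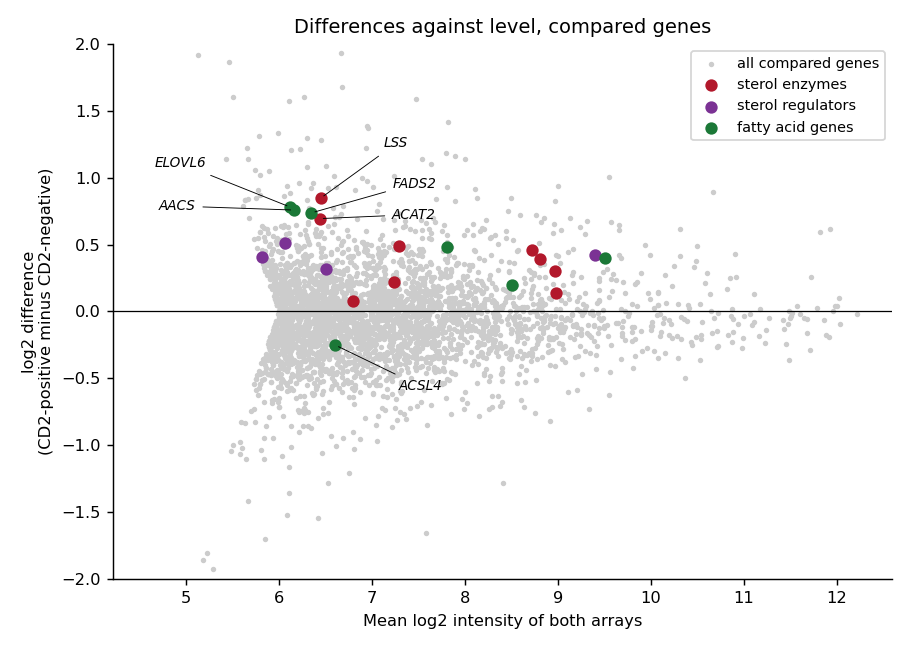
Log2 difference (CD2-positive minus CD2-negative) against mean log2 intensity of both arrays for all 3564 compared genes (grey) and the 20 compared genes of sterol and fatty acid synthesis (coloured by group), with 10 grey genes beyond the axis limit of 2. The coloured points lie above 0 at low and at high mean level, with ACSL4 the exception, and the 5 genes past 1.5-fold lie among the dimmer compared genes.

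Above the floor, the probe sets of each synthesis gene shared a direction. The 31 measured genes had 67 probe sets, of which 31 reached the floor, and 30 of these were higher and 1, that of *ACSL4*, lower in the CD2-positive subclone. These 31 sets count some genes more than once. With 1 set per gene, 41.9% of all compared genes were higher, and the share over all probe sets is not given here. In each of the 6 genes that had several probe sets at or above 64 (*ACLY*, *HMGCS1*, *IDI1*, *INSIG1*, *SCD* and *SQLE*) the sets shared a sign. How often this held over the whole array is not given here. The brightest probe set had the smallest difference in 4 of these 6 genes, against 476 of the 937 genes of the whole array with more than 1 such probe set (50.8%). Of the 25 probe sets below the floor that were not the brightest of their gene, 12 were higher, 5 lower and 8 equal. The second set of *ACACA* read 15 in CD2-positive cells, against 18 in CD2-negative cells, and a dim set of *ELOVL5* read 9 and 15 in that order, both opposite in sign to the brightest set of the gene. Another of *ELOVL5* read 2 and 3, and the other 2 lower sets were those of *ACSL4*. Of the 67 probe sets 6 were at the level of the Bacillus controls on both arrays.

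**Figure D3:**
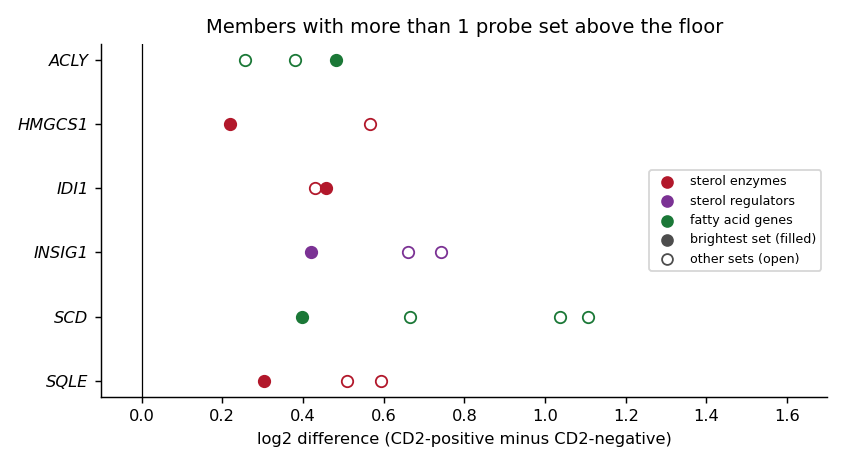
Log2 difference (CD2-positive minus CD2-negative) of every probe set above the floor for the 6 genes with more than 1 such set; filled points are the brightest set of the gene and open points the others. All points lie to the right of 0, and the sets of SCD span 0.40 to 1.11.

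The 3 compared synthesis genes with the lowest differences lay among chromosomal neighbours that were themselves lower. For each gene the median difference of up to 15 compared genes on either side in RefSeq order (assembly GCF_000001405.40), without members of the list, was taken as the value of its neighbourhood. *ACSL4* is on chromosome X, where the neighbouring median was -0.56, lower than its own -0.25. *FDPS* and *HSD17B7*, the 2 compared sterol enzyme genes of the list with the smallest differences, are on chromosome 1, with neighbouring medians of -0.41 and -0.25. *PMVK*, below the floor and the only negative sterol enzyme gene of the list, is on chromosome 1 as well, with a neighbouring median of -0.34. Of the other genes below the floor, *INSIG2* (0), *ACACA* (0.08) and *MVK* (0.12) had small differences by their brightest probe sets, with neighbouring medians of -0.05, -0.03 and 0.02. Dimmer sets of *MVK* gave 0.51 and 0.45. The neighbourhoods of the other 17 compared genes had medians between -0.17 and 0.01. All 20 compared genes lay above the median of their neighbours, by 0.18 (*ELOVL5*) to 0.95 (*ELOVL6*), with a median of 0.50. The share of all compared genes that lay above their own neighbours is not given here, so this count is a description. Without the 3 compared genes in shifted neighbourhoods the lowest difference was 0.19 and the median 0.46. Whether these neighbourhoods mark a difference in chromosome content between the subclones was not tested.

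**Figure D4:**
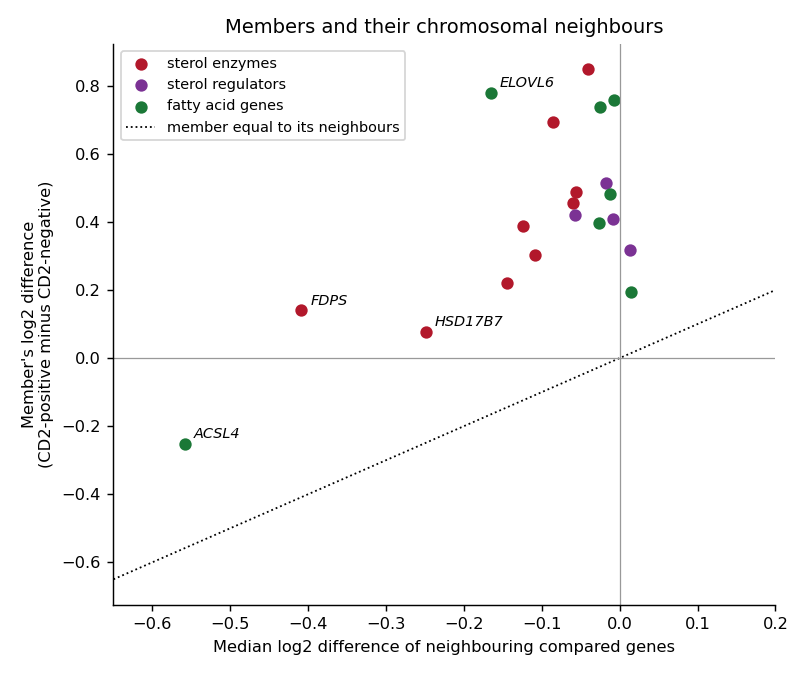
Log2 difference (CD2-positive minus CD2-negative) of each of the 20 compared genes against the median log2 difference of neighbouring compared genes on its chromosome; the dotted line marks equality. ACSL4, FDPS and HSD17B7 lie at the left, at -0.56, -0.41 and -0.25, and all points lie above the dotted line.

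Further genes of the pathway were taken from lists that were likewise written with earlier results of these arrays known. The shares beside their counts are those of all compared genes, 41.9% higher and 55.7% lower. When centred on the hybridisation controls, 69.2% of all compared genes were higher. Of 10 compared genes for other steps of sterol synthesis and for the isoprenoid side branches, 3 were higher and 7 lower, with a median of -0.07, which turned to 0.11 (8 higher, 2 lower) when values were centred on the hybridisation controls, a step that moves every difference up by 0.18 and the median of all compared genes to 0.14. *EBP*, the sterol isomerase, read 236 in CD2-positive cells, against 161 in CD2-negative cells (0.55). *ERG28*, a scaffold of sterol demethylation, read 127 in CD2-positive cells, against 96 in CD2-negative cells (0.40). *GGPS1*, geranylgeranyl diphosphate synthase, which diverts farnesyl diphosphate from sterols to protein prenylation, read 63 in CD2-positive cells, against 89 in CD2-negative cells (-0.50), and its neighbours on chromosome 1 had a median of -0.32. *COQ2*, of ubiquinone synthesis, gave 0.30. The sterol enzyme genes *NSDHL*, on chromosome X, and *LBR*, on chromosome 1, gave -0.13 and -0.08 with neighbouring medians of -0.47 and -0.40, and both turned positive (0.05 and 0.10) under that centring. None of the 10 passed 1.5-fold.

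Genes that control SREBP processing went both ways. Of 5 compared genes 2 were higher and 3 lower, close to the shares of all compared genes (41.9% higher, 55.7% lower). Their median was -0.15, which turned to 0.04 under the same centring. Of 9 measured genes of this list below the floor, 2 were higher and 7 lower, against 4408 higher and 4682 lower of all 16211 such genes. *SPRING1*, a Golgi protein needed for SREBP activation, read 177 in CD2-positive cells, against 128 in CD2-negative cells (0.47). *RNF139*, a sterol-linked ubiquitin ligase, read 60 in CD2-positive cells, against 77 in CD2-negative cells (-0.36). *SEC24C*, a coat protein of vesicles leaving the endoplasmic reticulum, gave -0.22, and *MARCHF6*, a ubiquitin ligase that acts on squalene epoxidase, -0.15, which became 0.04 when centred. The other 2 probe sets of *MARCHF6* above the floor had the opposite sign, at 82 and 69 in CD2-positive cells, against 73 and 52 in CD2-negative cells, so its direction differs between probe sets. In the 6 further pathway lists, 12 genes had more than 1 probe set above the floor. In 4 of them, *MARCHF6*, *NUS1*, *PRKAB1* and *TKT*, these sets had opposite signs.

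Among genes for the supply of acetyl-CoA and NADPH, 6 of 10 compared genes were higher and 4 lower, with a median of 0.03 (0.22 and 10 of 10 higher when centred on the hybridisation controls). *PGD*, a NADPH-forming enzyme of the pentose phosphate pathway, read 243 in CD2-positive cells, against 162 in CD2-negative cells, a ratio of exactly 1.5. *SLC25A1*, the mitochondrial citrate carrier that feeds ATP citrate lyase, read 67 in CD2-positive cells, against 49 in CD2-negative cells (0.45). *ME1*, malic enzyme, gave -0.18 (0.00082 when so centred), and *IDH1*, cytosolic isocitrate dehydrogenase, 0.17. Other elongation and activation genes were higher in 4 of 5 cases, with a median of 0.27. These included 2 enzymes of the elongation cycle, *HSD17B12*, at 359 in CD2-positive cells, against 268 in CD2-negative cells (0.42), and *TECR*, at 93 and 73 in the same order (0.35). *HACD4* gave 0.27 and *ACSL5* gave 0.11. The 1 lower gene was *HACD3*, a dehydratase of the same cycle, at 226 in CD2-positive cells, against 236 in CD2-negative cells (-0.06), with 0.12 after centring on hybridisation controls.

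Most genes of sterol transport and export were dim. Of 20 measured genes 15 lay below the floor, where 5 were higher, 7 lower and 3 equal. The export genes *ABCA1* (48 in CD2-positive cells, against 46 in CD2-negative cells) and *ABCG1* (3 on both arrays) were among them. Over all 16211 genes below the floor, 4408 were higher, 4682 lower and 7121 equal. The 5 compared genes had small differences. Of these 4 were higher, all of the 5 lay between -0.02 and 0.19, and the median was 0.08. The largest were *OSBPL8*, a sterol-binding protein of membrane contact sites, at 0.19, and *NPC2*, a lysosomal cholesterol carrier, at 0.14. *LIPA*, the lysosomal lipase for cholesteryl esters, gave 0.03 and *TSPO*, an outer mitochondrial membrane protein, 0.08.

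Genes of fatty acid oxidation, which takes apart what the synthesis genes build, had mostly positive differences too. Of 11 compared genes 8 were higher and 3 lower, with a median of 0.22. *HSD17B4*, the peroxisomal bifunctional enzyme, read 368 in CD2-positive cells, against 138 in CD2-negative cells (2.67-fold, 1.42), a larger difference than that of any of the 31 measured genes of synthesis. Without centring it was the only compared gene of the synthesis list and the 6 further pathway lists past 2-fold. A single further probe set of *HSD17B4* read 2 on both arrays. *ACADVL*, the very long-chain acyl-CoA dehydrogenase of mitochondria, read 568 in CD2-positive cells, against 357 in CD2-negative cells (1.59-fold, 0.67). *HADHA*, of the mitochondrial trifunctional protein, gave 0.38, and its neighbours on chromosome 2 had a median of 0.24. *CPT1A*, which admits fatty acids to mitochondria, gave 0.37.

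**Figure D5:**
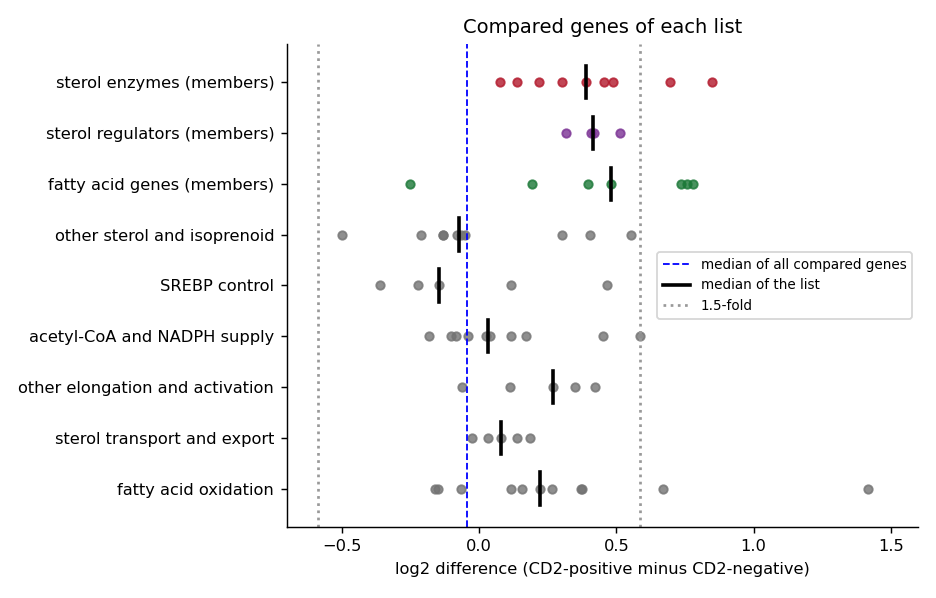
Log2 difference (CD2-positive minus CD2-negative) of each compared gene by list, with the list's median (black bar), the median of all compared genes at -0.05 (dashed) and 1.5-fold in either direction (dotted). The 3 upper lists, which hold the 20 compared synthesis genes, have medians of 0.39, 0.41 and 0.48; HSD17B4 is the point at 1.42 among the oxidation genes.

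Promoter sequences were examined because SREBPs are known to act from elements close to the start sites of these genes, together with the factors NF-Y, which binds CCAAT, and SP1, which binds GC boxes. RefSeq promoter windows of GRCh38.p14, from 250 bases before to 50 bases after the start, were available for 32 of the 36 genes. They are reference sequence and were not read from HMC1. A motif was searched on both strands, and a gene counted where any of its listed windows held it. The sterol regulatory element, taken as TCACNCCAC, was found in 2 of the 32 genes (*ACSL1* and *SREBF2*), against 1.74% of the 3047 compared genes with a window. CCAAT was found in 23 of 32 (71.9%), against 45.4% of compared genes, and in 11 of 13 sterol enzyme genes. GGGCGG was found in 31 of 32 (96.9%), against 77.9% of compared genes. CACGTG, the E-box form searched, was found in 5 of 32 (*ELOVL5*, *INSIG1*, *LSS*, *SC5D* and *SCAP*; 15.6%), against 14.4% of compared genes. The 32 genes include some below the floor or not measured, which the compared genes do not. Over all 27305 genes with a window, 1.39% held the sterol regulatory element, 39.7% CCAAT, 48.3% GGGCGG and 8.77% CACGTG. These are matches of letters, with no binding measured, and the window is short.

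The 250 bases before the start are shown for the 4 sterol enzyme or fatty acid genes with the largest differences, *LSS* (0.85), *ELOVL6* (0.78), *AACS* (0.76) and *FADS2* (0.74). They are written from 5′ to 3′ on the strand of the gene, with capitals for CCAAT and GGGCGG in either orientation, the motifs of the search found in these stretches. The windows are chr21:46228775-46229024 (minus strand) for *LSS*, chr4:110198616-110198865 (minus) for *ELOVL6*, chr12:125065185-125065434 (plus) for *AACS* and chr11:61816154-61816403 (plus) for *FADS2*. The second listed start site of *FADS2* is shown because its stretch holds a GC box, while that of the first holds none of the motifs.
LSS: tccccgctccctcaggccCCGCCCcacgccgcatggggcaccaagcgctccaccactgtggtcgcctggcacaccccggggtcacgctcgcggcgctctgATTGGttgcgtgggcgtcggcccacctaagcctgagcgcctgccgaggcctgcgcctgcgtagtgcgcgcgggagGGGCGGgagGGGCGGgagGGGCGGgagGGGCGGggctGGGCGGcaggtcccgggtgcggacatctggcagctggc
ELOVL6: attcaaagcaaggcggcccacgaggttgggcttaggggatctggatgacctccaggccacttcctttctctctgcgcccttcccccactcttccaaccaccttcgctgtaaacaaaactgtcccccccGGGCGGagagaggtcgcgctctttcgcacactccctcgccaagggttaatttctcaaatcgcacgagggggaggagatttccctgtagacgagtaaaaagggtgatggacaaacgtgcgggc
AACS: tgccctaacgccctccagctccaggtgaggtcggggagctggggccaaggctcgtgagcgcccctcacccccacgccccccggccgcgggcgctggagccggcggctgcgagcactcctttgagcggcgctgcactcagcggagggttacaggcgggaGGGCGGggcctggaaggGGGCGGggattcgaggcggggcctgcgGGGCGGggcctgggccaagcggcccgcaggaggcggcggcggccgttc
FADS2: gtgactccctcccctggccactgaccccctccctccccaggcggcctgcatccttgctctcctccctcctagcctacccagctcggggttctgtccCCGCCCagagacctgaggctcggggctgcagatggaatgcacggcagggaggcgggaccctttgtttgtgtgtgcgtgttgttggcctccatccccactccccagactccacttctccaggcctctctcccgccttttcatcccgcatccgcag
The stretch of *LSS* held 1 CCAAT box, in the inverted orientation and starting 150 bases before the start, and 6 GC boxes, of which 5 lay within the last 75 bases. Its E-box lay in the 50 bases after the start and is not shown. *AACS* held 3 GC boxes in its last 92 bases, while *ELOVL6* and this start of *FADS2* held 1 each. The CCAAT counted for *FADS2* lay in the 50 bases after this start and is not shown. No CCAAT and no sterol regulatory element as spelled above stood in the 3 stretches other than that of *LSS*.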

How the data were processed

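RNA of 1 CD2-positive and 1 CD2-negative HMC1 culture had been hybridised to U133 Plus 2.0 arrays. Per the submitters' processing notes, the authors used RMA and Affymetrix Expression Console 1.1 to make the deposited intensity values. They are whole numbers on a linear scale, with a median of 4 on each array. No source used here gives the kind of background correction, which affects dim genes and folds against them. Quantile normalisation, a part of RMA, removes differences in total signal.

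Of 54675 probe sets, 41097 carried 1 gene symbol, 1801 several and 11777 none. Of the 41097, 41043 were given current symbols through RefSeq gene identifiers. Values were converted to log2 and described as differences, with a floor of 64 on the higher array and size rules of 1.5-fold and 2-fold. With 1 array per group no test was made, and the number of arrays limits the precision. Promoter windows came from RefSeq (GRCh38.p14). The computation was tested on simulated data with known changes.

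The members and lists were chosen with earlier results of these data known. All members could be named. From the other lists up to 4 compared genes with the largest differences, and any past 1.5-fold, were eligible. Further genes were named after their values were seen. They were *NSDHL*, *LBR*, *HACD3*, *NUS1*, *PRKAB1*, *TKT*, *ABCA1*, *ABCG1*, *COL1A1*, *CMA1* and the motif-bearing genes. The alternatives were floors of log2 5 and 7 and none, the mean of all probe sets, plain identifiers (no _s, _x or _a), centring on all probe sets or on the hybridisation controls, a lowess correction (span 0.3), and subtraction of neighbouring genes. The dimmest probe set above the floor, and leaving out genes in shifted neighbourhoods (median of 0.2 or more in size), were alternatives chosen after seeing the data. The tools were Python 3.11.15, pandas 2.3.3, numpy 2.4.6 and statsmodels 0.14.6.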

Additional observations from a re-analysis of the deposited data

How the results depend on the processing

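No paired analysis was possible because each subclone has 1 array. The medians of the sterol enzyme, sterol regulator and fatty acid genes and of all members stayed positive under every alternative run, between 0.30 and 0.76. Some of these medians rest on very few genes. At a floor of log2 7 only 1 sterol regulator gene was left. Of the fatty acid genes 3 were left at that floor and with averaged probe sets, and 2 with plain identifiers. Centring on the hybridisation controls raised them to 0.57, 0.60, 0.66 and 0.60, in that order. The same centring turned the median of all compared genes to 0.14. It moves every gene by the same amount, so the members' median necessarily stayed 0.46 above that of all compared genes. Lowess turned the median of all compared genes to 0.0028. The sterol enzyme median was 0.52 after subtraction of neighbouring genes, and the fatty acid median was 0.76 when all probe sets of a gene were averaged, 0.74 with the dimmest probe set above the floor and 0.61 without *ACSL4*, which lies in a shifted neighbourhood. The number of members higher was 10 at a floor of log2 7, 12 with averaged probe sets and 11 with plain identifiers. Fewer genes passed the floor there, and with plain identifiers some genes, *ACAT2* and *AACS* among them, had no probe set left. The number lower was 2 at a floor of log2 5 and with no floor, and 0 at log2 7, with the mean, with plain identifiers and without genes in shifted neighbourhoods. Members at least 1.5-fold higher numbered 0 at log2 7, 2 with plain identifiers, 11 centred on the hybridisation controls, 8 with the dimmest probe set and 0 by the 2-fold rule. Compared genes at least 1.5-fold higher and lower numbered 271 and 244 at log2 5, 85 and 65 at log2 7, 1264 and 1391 with no floor, 97 and 68 with the mean, 97 and 82 with plain identifiers, 313 and 58 centred on the hybridisation controls, and 43 and 27 by the 2-fold rule, against 153 and 136 in the report. Of these calls 52.9% were higher in the report, 84.4% after centring on the hybridisation controls and 66.2% after lowess. Under the same centring every compared gene of the lists of other elongation and activation (5), sterol transport and export (5) and fatty acid oxidation (11) was higher. *ACSL4* kept its negative sign there, at -0.07, and was positive only relative to its neighbours (0.31). The cause of values that moved was not tested beyond the change of genes that pass a floor. Dim genes, *FASN* and *FADS3* among them, rest on values where 1 unit is a large relative change.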
